A study of Mus musculus with 2 samples.

Results

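The nuclear-encoded respiratory chain genes were examined for open chromatin in mouse ovary. They were taken by name, as every protein-coding gene of the nuclear genome whose symbol starts with Nduf, Uqcr, Sdh followed by a to d, Cox4 to Cox8, or Atp5, so no measured value chose them. The rule found 98 gene entries under 97 symbols, because Atp5o has 2 gene identifiers, out of 21938 nuclear protein-coding genes in the GENCODE M21 annotation of GRCm38 (mm10). By their symbols 36 encode subunits of complex I, 4 of complex II, 8 of complex III, 20 of complex IV and 18 of complex V, and 12 are assembly factors of complexes I and II. Ndufa4 and Ndufa4l2 were counted with complex IV, where Ndufa4 is now placed, and Cox7a2l, Atp5s and Atp5mpl went with the complex in their symbol.

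DNase-seq was carried out on ovary tissue from 2 female mice aged 36 days, of the B6CASTF1/J strain, an F1 hybrid between C57BL/6J and CAST mice, with no treatment named in the labels. Each library was read as 1 animal (replicate 1 and replicate 2), since the labels number the females apart, although they give both the same donor entry, and the animals form a single group, so there was no contrast between conditions. DNase I digests accessible DNA more readily than DNA in nucleosomes, so that a cluster of cuts, called a peak, marks accessible chromatin. A short protected stretch within a peak, called a footprint, can mark a bound protein. A promoter was called open where each library had a peak no more than 500 bp from any transcription start site in the gene's annotation, and its value was the highest deposited peak signal there. The sources used here do not give the scaling of that signal, so the values serve to rank promoters and have no unit beyond that.

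The respiratory chain of the inner mitochondrial membrane passes electrons through complexes I to IV and pumps protons, and complex V, the ATP synthase, uses the proton gradient to make ATP. A few core subunits are encoded in mitochondrial DNA, and all other subunits and the assembly factors come from nuclear genes scattered over the chromosomes. Transcription factors known to act on many of these genes are NRF1, the ETS factor GABPA, YY1, and the estrogen-related receptors with their coactivators of the PGC-1 family. In the ovary, mitochondria carry out the first step of steroid synthesis in theca and luteal cells and supply the growing oocyte.

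The sites printed here are the consensus matches of the strongest promoters that lay under a footprint in both libraries, and they show the letters on which the counts of motifs rest. All are reference sequence of C57BL/6J on GRCm38, written on the strand of the named gene, and the CAST allele of these hybrids was not analysed here. Capitals mark the bases that match the consensus. For NRF1 the consensus was GCGCANGCG, which is nearly its own reverse complement, so that a site of 10 letters can match once on each strand. The first sequence runs from 200 bp upstream of the start of Ndufaf4, a complex I assembly factor, up to the base before the start (chr4:24897883-24898082, plus strand). Both of its NRF1 matches, which overlap, lay under a footprint in both libraries.
Ndufaf4 upstream: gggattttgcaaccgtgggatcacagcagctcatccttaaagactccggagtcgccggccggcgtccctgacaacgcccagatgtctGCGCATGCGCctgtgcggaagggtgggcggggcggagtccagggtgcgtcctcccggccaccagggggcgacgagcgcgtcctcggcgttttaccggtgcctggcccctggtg
Ndufa8 NRF1: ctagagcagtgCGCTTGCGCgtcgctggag
Cox6a1 NRF1: acggataaagtGCGCAGGCGctggagttcc
Atp5g2 NRF1: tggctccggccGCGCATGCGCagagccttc
The Ndufa8 site (chr2:36049349-36049378, minus strand) was centred at 43 bp from the start, where positive positions are downstream and negative ones upstream. The Cox6a1 site (chr5:115349057-115349086, minus strand) was centred at -90 bp. The Atp5g2 site (chr15:102671071-102671100, minus strand) was centred at 42 bp. The footprints over these 3 matches were 41 and 40 bp wide at Ndufa8, 21 and 19 bp at Cox6a1, and 22 and 21 bp at Atp5g2 in replicates 1 and 2, against a median width of 10 and 9 bp over all footprints. A wide footprint overlaps a match more easily, which was not adjusted for. At the ETS, YY1 and receptor sites printed below, widths ran from 7 bp (Ndufc1, replicate 2) to 36 bp (Atp5l, replicate 2).

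The consensus of ETS factors was CCGGAAG, and the 4 footprinted sites at the promoters of highest value are shown for it.
Cox6a1 ETS: tccccatttccgCTTCCGGcgcgccggtgt
Ndufs1 ETS: aggcctcggctaCTTCCGGcggaactgcag
Ndufb7 ETS: gcctagatgacCCGGAAGacactgaagggg
Sdhb ETS: gctcggagaaaCCGGAAGcggccttccact
These lie at chr5:115348957-115348986, chr1:63176821-63176850 (both minus strand), chr8:83566727-83566756 and chr4:140961266-140961295 (both plus strand). Their centres were at 10 bp from the start in Cox6a1, -2 bp in Ndufs1, -17 bp in Ndufb7 and 77 bp in Sdhb.

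For YY1 the consensus was AAGATGGC, and for the estrogen-related receptors, which share their half-site with the ovarian factors NR5A1 and NR5A2, it was CAAGGTCA. The receptor consensus had a footprint in both libraries at a single member, Atp5l, which encodes a subunit of the membrane part of the ATP synthase.
Ndufaf8 YY1: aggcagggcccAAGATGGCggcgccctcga
Ndufc1 YY1: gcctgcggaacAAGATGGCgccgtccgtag
Ndufb8 YY1: cggagaaggtgAAGATGGCtgccgcccggg
Atp5h YY1: gctgcagctccGCCATCTTgggccgccgct
Atp5l receptor: gaggggcagccTGACCTTGgaaatggggaa
The sites lie at chr11:120098933-120098962 (plus strand), chr3:51408915-51408944, chr19:44555386-44555415, chr11:115420154-115420183 and chr9:44920737-44920766 (all 4 minus strand). The YY1 matches were centred at 3.5 bp from the start in Ndufaf8, 34.5 bp in Ndufc1, 3.5 bp in Ndufb8 and -206.5 bp in Atp5h. The receptor match of Atp5l was centred at -9.5 bp.

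Replicate 1 held 109169 peaks and 301406 footprints, and replicate 2 held 114462 peaks and 294269 footprints. The read depth behind them is not stated, and no counting interval was computed. Checked against marker genes chosen for the tissue, 8 of 8 granulosa cell genes had an open promoter, with mean values between 0.561 and 4.66. So had 5 of 6 theca and luteal genes, 4 of 4 stromal genes and 2 of 4 endothelial genes. Over all nuclear protein-coding genes outside the respiratory chain rule, 66.6% were open. Of the oocyte genes, Zp1, Zp2, Zp3, Bmp15 and Ddx4 had no promoter peak in either library, and the sixth, Gdf9, shares its peak with Uqcrq, as described with the shared starts. None of 4 male germ cell genes and 1 of 5 lymphocyte and macrophage genes, Cd2 at 1.27, was open. In whole tissue, a low value from few cells with an accessible site and a low value from weak accessibility in all cells cannot be told apart.

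Nearly all respiratory chain genes had an open promoter in the ovary, and those without one were mostly tissue-restricted isoforms of complex IV. The promoter was open in 90 of 98 entries (91.8%), against 66.6% of the other 21840 nuclear protein-coding genes. All 36 genes of complex I, all 4 of complex II and all 8 of complex III were open, as were 14 of 20 of complex IV, 17 of 18 of complex V and 11 of 12 assembly factors. One gene, Cox4i2, had a promoter peak in replicate 1 alone, and 7 entries had none in either library. No set test was run on these counts, which describe the genes of these 2 libraries.

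The open promoters of the respiratory chain were mostly of middle to high value, with few weak ones. Their mean value over both libraries had a median of 7.63, against 5.13 over the other open genes. In replicate 1 the medians were 9.86 for respiratory chain genes and 6.64 for the others, and in replicate 2 they were 5.23 and 3.59. A mean value above 8.43, the 75th percentile of all open promoters, was reached by 35 of the 90 (38.9%), against 24.9% of the other open genes. At the low end, 2 of the 90 (2.22%) lay under 2.30, the 25th percentile, against 25.1% of the others. The highest value was 15.1 among the 90 respiratory chain promoters and 41.1 among the 14541 others, a far larger group in which a higher maximum is more likely. Seen by complex, the median mean value was 7.55 in complex I, 8.96 in complex II, 7.23 in complex III, 6.48 in complex IV, 8.32 in complex V and 8.63 in the assembly factors. The range between the 25th and 75th percentile ran from 5.19 to 9.39 in complex I, from 3.51 to 8.27 in complex IV and from 5.59 to 9.63 in complex V, and these ranges overlapped. It was narrower among the 4 genes of complex II, from 8.05 to 9.28.

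**Figure D1:**
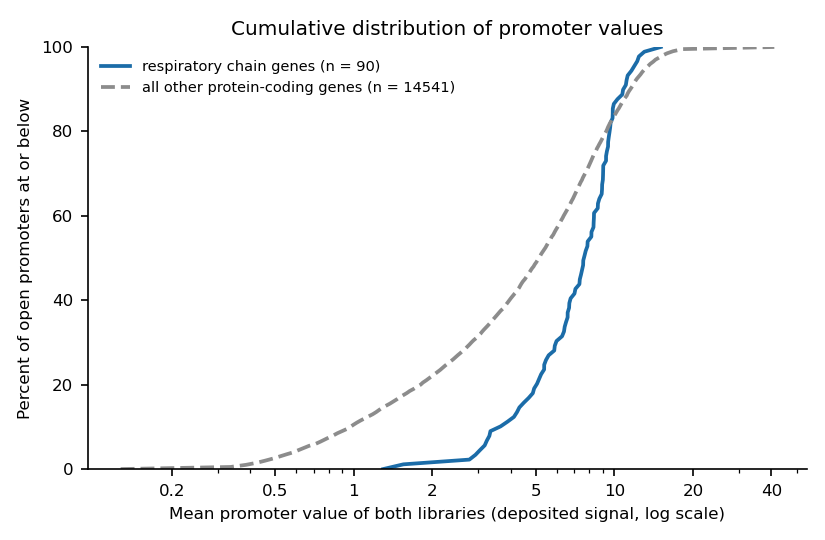
Cumulative percent of open promoters (vertical axis) at or below a mean promoter value (horizontal axis, deposited signal on a log scale), for the 90 open respiratory chain genes (solid line) and the 14541 other open protein-coding genes (dashed line). The solid line stays low up to a value of about 5 and then climbs steeply around its median of 7.63, and the lines cross near 10.

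Replicate 1 gave the higher value at 89 of the 90 open promoters, with a median log2 ratio of replicate 1 over replicate 2 of 0.86 (SD 0.28 across genes). The other open genes showed an offset of like size, with a median of 0.88 (SD 0.39). At most members the SD given after the mean is therefore mostly this offset, whose direction 89 of the 90 share. The order of genes within a library does not carry this offset. The highest ratios were those of Ndufv2 (1.39) and Atp5h (1.39), followed by Cox7a2 (1.27). The lowest were 0.28 at Ndufs8, 0.15 at Ndufaf1 and -0.25 at Cox7b, the one gene with the lower value in replicate 1. With 1 animal per library, a difference between animals and a difference between libraries cannot be told apart.

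**Figure D2:**
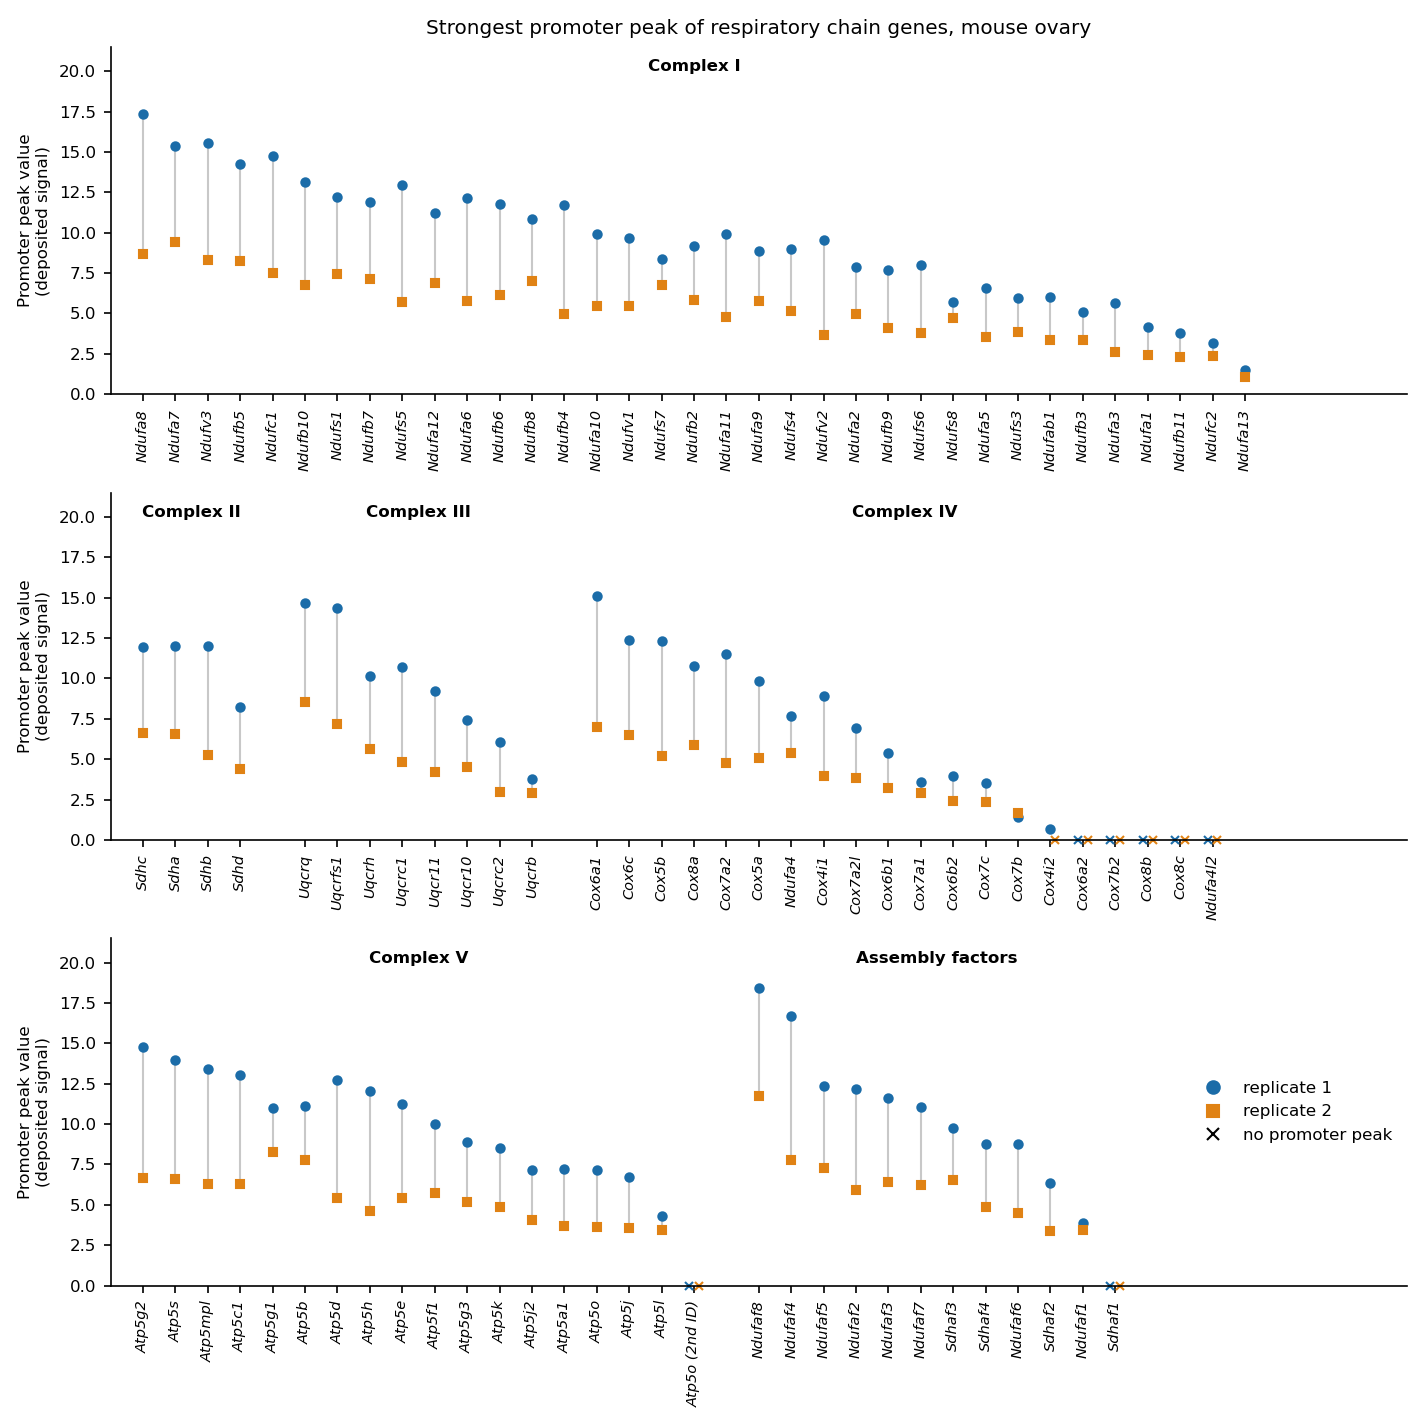
Promoter value (vertical axis, deposited signal) of the respiratory chain genes reported here, ordered by mean within each complex, with replicate 1 as blue circles, replicate 2 as orange squares and a cross at 0 where a library had no promoter peak. Replicate 1 lies above replicate 2 at all open genes drawn but Cox7b, the genes drawn for complexes I to III are open, and most of the crosses stand in complex IV.

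Complex I takes electrons from NADH, and its 36 genes ran from 1.30 to 13.0 in mean value. Here and in the other complexes, the highest and lowest genes are those by mean value. The 4 highest were accessory subunits. Ndufa8 had 17.4 in replicate 1 and 8.68 in replicate 2 (mean 13.0 ± 6.14, SD, n = 2). Ndufa7 had 15.4 and 9.42 (12.4 ± 4.23), Ndufv3 15.5 and 8.30 (11.9 ± 5.12) and Ndufb5 14.2 and 8.23 (11.2 ± 4.25). Ndufb5 was the lowest of the 4 in both libraries and Ndufa8 was above Ndufv3 in both, while the libraries differed on whether Ndufa8 or Ndufa7 was highest. Core subunits that the nucleus encodes, among them the carriers of the flavin and the iron-sulfur clusters, lay mostly in the middle of the range. Those named here, chosen for their role after values were seen, had mean values of 9.85 at Ndufs1, 7.59 at Ndufv1, 7.58 at Ndufs7, 6.61 at Ndufv2, 5.23 at Ndufs8 and 4.92 at Ndufs3. The 2 lowest genes were Ndufc2, with 3.19 and 2.36, and Ndufa13, with 1.5 and 1.09. Ndufa13, which is also known as the cell death regulator GRIM-19, took this value at its GENCODE start. RefSeq places the start 538 bp away, where the peaks had values of 12.7 and 8.12, so its low rank depends on the start used.

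Complex II is succinate dehydrogenase, which links the citric acid cycle to the chain, and it holds no subunit from mitochondrial DNA. Its 4 genes were all open and close in value. Sdha, the flavoprotein, had 12.0 in replicate 1 and 6.56 in replicate 2. The iron-sulfur subunit gene Sdhb had 12.0 and 5.25, and the membrane anchor genes had 12.0 and 6.60 for Sdhc and 8.21 and 4.37 for Sdhd. Sdhd was the lowest of the 4 in both libraries.

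Complex III passes electrons from ubiquinol to cytochrome c. Uqcrq, a small subunit, was highest at 14.7 in replicate 1 and 8.57 in replicate 2. Uqcrfs1, which encodes the Rieske iron-sulfur protein, followed with 14.4 and 7.20. The hinge protein gene Uqcrh had 10.1 and 5.61. The core proteins differed, with 10.7 and 4.80 at Uqcrc1 and 6.03 and 2.94 at Uqcrc2. Uqcrb, the other gene at the low end, had 3.76 and 2.92, so that in each library Uqcrb lay under every other gene of the complex.

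In complex V, Atp5g2 had the highest mean, with 14.8 in replicate 1 and 6.67 in replicate 2, although Atp5g1 (8.27) and Atp5b (7.78) were above it in replicate 2. It was followed by Atp5s, with 13.96 and 6.59, by Atp5mpl, a small subunit of the membrane part, with 13.4 and 6.30, and by Atp5c1, the gamma subunit of the rotor, with 13.0 and 6.29. Atp5g1, Atp5g2 and Atp5g3 encode the same mature subunit c, the ring that turns in the membrane, and all 3 were open. Their mean values were 9.63 ± 1.92 at Atp5g1, 10.7 ± 5.73 at Atp5g2 and 7.02 ± 2.65 at Atp5g3 (SD, n = 2). The libraries ordered them differently, with Atp5g2 highest in replicate 1 and Atp5g1 highest in replicate 2. The lowest open genes were Atp5j, the coupling factor 6 gene, with 6.71 and 3.56, and Atp5l, with 4.31 and 3.46. The entry without a peak was the second Atp5o identifier, a long gene model whose start lies 4648 bp from the RefSeq start of Atp5o, while the first Atp5o entry was open at 7.14 and 3.61.

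Assembly factors are not part of the finished complexes but help to build them, and their promoters included the highest of the whole set. Ndufaf8 had 18.4 in replicate 1 and 11.7 in replicate 2 (mean 15.1 ± 4.73, SD, n = 2), above the other 89 open genes in both libraries. Ndufaf4 had 16.7 and 7.79, Ndufaf5 12.4 and 7.28, and Ndufaf2 12.2 and 5.93. At the low end stood Sdhaf2, which inserts the flavin of complex II, with 6.35 and 3.37, and Ndufaf1 with 3.85 and 3.46. Sdhaf1, which acts on the iron-sulfur subunit of complex II, had no peak within 500 bp of its GENCODE start. The RefSeq start of Sdhaf1 lies 1520 bp away, and a peak there had 13.5 and 6.49, so its call depends on the start used.

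Complex IV, cytochrome c oxidase, has several subunits with more than one gene, and the isoforms differed in whether the promoter was open at all. Its highest genes were Cox6a1, with 15.1 in replicate 1 and 7.01 in replicate 2, Cox6c with 12.4 and 6.50, Cox5b with 12.3 and 5.20, and Cox8a with 10.8 and 5.86. Cox6c, Cox5b and Cox8a encode structural subunits around the catalytic core. Its lowest open genes were Cox7c with 3.53 and 2.32 and the X-linked Cox7b with 1.41 and 1.68. The 3 members on the X chromosome, Cox7b, Ndufa1 and Ndufb11, had a median mean value of 3.05, against 7.76 for the 87 on autosomes. The other open genes showed the same order, with medians of 2.54 on X and 5.28 on autosomes.

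Within 5 of the families the widely used isoform was open and at least one restricted isoform was not. Cox4i1 had 8.92 in replicate 1 and 3.96 in replicate 2, whereas Cox4i2, the isoform known from lung and from low oxygen, had 0.645 in replicate 1 and no peak in replicate 2. The lowest q-value listed within 500 bp of the Cox4i2 start was 0.00159 in replicate 1, and none was listed in replicate 2. Cox6a1 was open, whereas Cox6a2, its heart and skeletal muscle isoform, had no peak in either library. Cox8a was open, and neither Cox8b, a muscle and brown fat isoform in mice, nor Cox8c, known from testis, had a promoter peak. Cox7b was open at a low value, and the testis isoform Cox7b2 was not. Ndufa4 had 7.68 and 5.36, and its paralog Ndufa4l2, which is induced by low oxygen, had no promoter peak.

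The division by tissue was not complete. Cox7a1, the heart and muscle isoform, was open with 3.56 in replicate 1 and 2.92 in replicate 2, under the 11.5 and 4.79 of the widely used Cox7a2 and the 6.93 and 3.82 of Cox7a2l, which takes part in supercomplex assembly. Cox6b2, known from testis, was open with 3.97 and 2.38, close to the 5.41 and 3.23 of its widely used partner Cox6b1. Of the muscle marker genes, Myh1, Myh6 and Myf6 had no promoter peak in either library, while Actn2, Ckm and Tnni3 were open at mean values of 2.87, 2.05 and 1.02. Ucp1 and Cidea, brown fat markers, had 0.437 and 1.53, and Adipoq, the third, had none. The part of other cell types in the Cox7a1 and Cox6b2 peaks was not tested, and none of the 4 male germ cell genes was open. At the 7 entries with no peak in either library, no base within 500 bp of a start had a q-value listed, with lists that end at 0.0499 in both libraries.

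**Figure D3:**
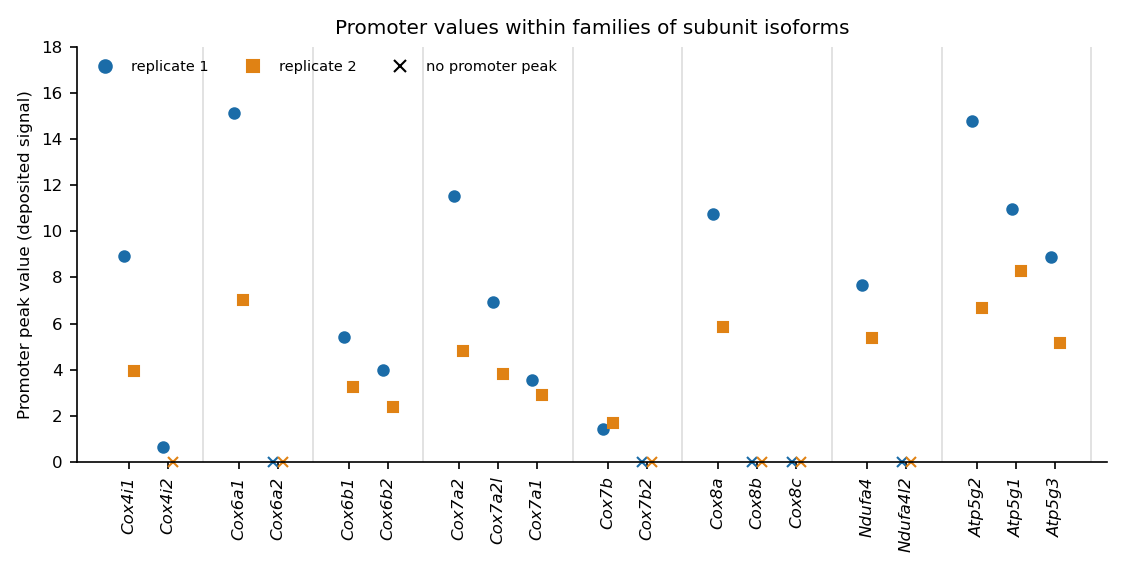
Promoter value (vertical axis, deposited signal) of genes that encode alternative isoforms of one subunit, with replicate 1 as blue circles, replicate 2 as orange squares and a cross at 0 where a library had no promoter peak. In the families of Cox4i, Cox6a, Cox7b, Cox8 and Ndufa4 a restricted isoform lacks a peak in at least 1 library, whereas all 3 subunit c genes at the right are open.

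Open members had starts richer in CpG than the closed ones. The observed over expected ratio of CpG within 500 bp of the start had a median of 0.746 over the 90 open genes and 0.272 over the 8 others. The ranges overlapped, from 0.277 to 1.04 in open genes and from 0.0858 to 0.468 in the others. The start used was the one nearest the strongest replicate 1 peak, or the most upstream one where there was no such peak. Sdhaf1 (0.0858) and the second Atp5o identifier (0.284), both among the others, have a RefSeq start elsewhere, as given above. How far the choice of start made the difference was not tested. Cox7a1 was the open gene with the lowest ratio, 0.277, and Cox6b2, at 0.432, was next to it. Over the other open protein-coding genes the median was 0.729, close to that of the members.

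The promoter peaks sat close to the start, and many served a second gene. The centre of the strongest peak lay within 100 bp of a start in 81 of 90 genes (90%), against 71.3% of the other open genes, with a median position of -18.5 bp. A start of another protein-coding gene lay within 500 bp of the strongest peak in 35 of the 90 (38.9%), against 17.3% of the other open genes. In all 35 a partner ran in the opposite direction, as in 2229 of the 2516 other open genes with a shared start. None of the partners of the 35 was a respiratory chain gene. Some partners, picked here by function and outside the naming rule, also serve the mitochondrion or protein synthesis. Their share among all partners was not counted. Partners not picked include Morn5 at Ndufa8, Wdr4 at Ndufv3, Kbtbd4 at Ndufs3 and Rbm10 at Ndufb11. Ndufb5 was paired with Mrpl47 and Ndufs6 with Mrpl36, both genes of mitochondrial ribosome proteins, Sdhd with Timm8b, a chaperone of protein import, Ndufa7 with Rps28, a protein of the cytosolic ribosome, and Ndufs1 with Eef1b2, an elongation factor. Atp5j was paired with Gabpa, which encodes the DNA-binding subunit of the ETS factor known to act on respiratory chain genes. Uqcrq was paired with Gdf9, a growth factor of the oocyte, and the same peak of 14.7 and 8.57 made Gdf9 the one oocyte marker counted as open. A peak between such starts cannot be divided between its genes.

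Footprints were frequent at these promoters. In a window of 300 bp centred on the strongest peak of replicate 1, at least 1 footprint shared by both libraries was found in 88 of 90 genes (97.8%), against 92.7% of the 13315 other windows. Shared footprints averaged 4.36 per window in respiratory chain genes and 3.51 in the others. Each is a footprint of replicate 1, so a footprint of replicate 2 can be counted more than once. Ndufaf8 held the most, 11, followed by Atp5g2 with 9. Cox7c had 3 in replicate 1 and 4 in replicate 2 with none shared, and Ndufa13 had none in the window set by its GENCODE start. The members' promoter values were also higher, and the part of peak value in this count was not tested.

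Matches to NRF1, YY1 and the receptor half-site were more frequent at respiratory chain promoters than at other open promoters, while GC-box and CCAAT matches were not. Matches were sought on both strands of the windows for 10 consensus motifs. NRF1 was matched in 27 of 90 windows (30%), against 14.4% of the other windows, and YY1 in 18 (20%), against 4.66%. The ETS consensus was matched in 23 (25.6%), against 16.9%, and the receptor consensus in 4 (4.44%), against 0.804%. At least 1 of these 4 motifs was found in 55 windows (61.1%), against 31.9%. A match is a stretch of letters and does not show which protein was there.

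Of the other 6 motifs, 3 were less frequent than in the other windows and 3 more frequent, these last on counts of 3 to 5 windows. The GC box of SP and KLF factors, GGGCGG, was found in 52 windows (57.8%), against 71.1%. NFY, CCAAT, was found in 28 (31.1%), against 35.1%. The E-box CACGTG was found in 6 (6.67%), against 9.94%. ZNF143, CTACANTTC, was found in 3 (3.33%), against 2.34%. The CREB and ATF site TGACGTCA was found in 5 (5.56%), against 3.41%. The TATA letters TATAAA were found in 4 (4.44%), against 3.72%.

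The comparison was repeated among promoters of higher value, where the ETS shares were close and the other 3 motifs stayed more frequent at respiratory chain genes. Among promoters with a mean value above the median of all open ones, a comparison added after the data had been seen, ETS was matched in 24.3% of 70 respiratory chain windows and 23.3% of 6322 others. NRF1 stood at 37.1% against 22.4%, YY1 at 24.3% against 7.10%, and the receptor consensus at 4.29% against 0.569%. With a longer ETS consensus, CCGGAAGT, the shares were 7.78% in respiratory chain windows and 7.38% in the others. The ETS share thus stood above that of the other windows with the shorter consensus over all promoters, and close to it in both other comparisons.

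**Figure D4:**
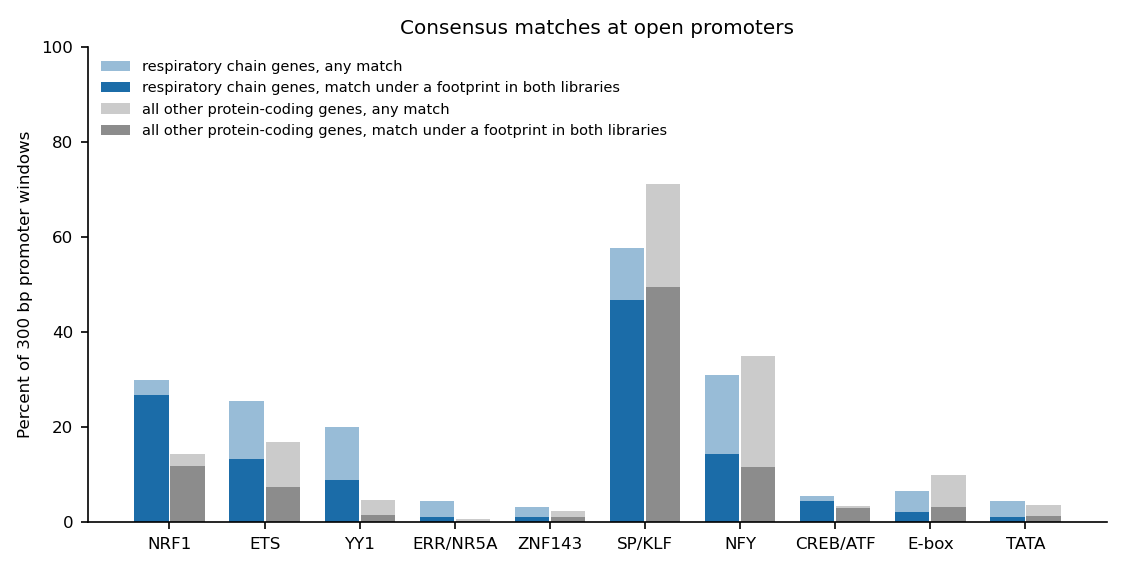
Percent of promoter windows of 300 bp (vertical axis) that hold each consensus (horizontal axis), for 90 respiratory chain genes (blue, left bar of each pair) and 13315 other windows (grey, right bar), with the dark part for windows whose match lies under a footprint in both libraries. The blue bar stands well above the grey one for NRF1 (30% against 14.4%) and YY1 (20% against 4.66%), and under it for the GC box. For ETS it is above by less (25.6% against 16.9%). Both receptor bars are low (4.44%, or 4 windows, against 0.804%).

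Counts of motifs by complex were small and were not compared by a test. NRF1 was matched at 8 of 36 complex I genes and at 8 of 17 open complex V genes, and YY1 at 9 and 4 of them. Of the 14 open complex IV genes, 3 had NRF1, 5 had ETS and 1 had YY1. Receptor matches occurred at Sdhd, Cox8a, Atp5g3 and Atp5l, and at no gene of complex I or III. All 4 complex II genes had at least 1 of the 4 motifs, as had 13 of 17 in complex V and 3 of 8 in complex III.

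NRF1 matches lay under footprints more often than any other of the 4 motifs. Of 43 NRF1 matches at respiratory chain promoters, 38 (88.4%) were overlapped by a footprint in both libraries, against 81.8% at other promoters. For ETS this held for 14 of 27 matches (51.9%), against 40.5%, and for YY1 for 9 of 19 (47.4%), against 34.5%. Of the 4 receptor matches, 1 was under a footprint in both libraries (25%), against 31.2%, whereas in replicate 1 alone it was 3 of 4 (75%), against 46.8%, so the direction of this difference depends on the library. Overlapping NRF1 matches on both strands count as 2 here. Among promoters with a mean value above the median of all open ones, the NRF1 shares were close, at 88.1% against 87.6%. There, ETS stood at 55% against 44.5% and YY1 at 44.4% against 36.8%. The receptor consensus stood at 0 of 3 matches against 47.2%. The share at NRF1 was thus high at other open promoters too.

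The motifs differed in their place. NRF1 matches were spread from -262 to 148 bp around the start, with 25 of 43 (58.1%) centred within 50 bp of it, against 51.3% at other promoters. ETS matches kept closer, with 21 of 27 (77.8%) within 50 bp, against 61.5% at other promoters. YY1 matches kept closer still, with 16 of 19 (84.2%) within 50 bp, against 64.7%, at a median position of 3.5 bp in both groups. All 4 receptor matches were within 50 bp, against 20.2% of 109 matches at other promoters. None of the 4 ran in the direction of the gene, against 59.6% that did so at other promoters, and 4 matches are too few to read an orientation from.

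The YY1 consensus contains the letters ATG, and most of its matches were translation start codons. On an annotated start codon of the same strand lay 15 of 19 matches at respiratory chain promoters (78.9%), against 39.6% of 634 at other promoters. In 13 of the 15 the codon lay on the strand of the respiratory chain gene, and at Atp5h and Uqcrh on the other strand. At other promoters, 228 of the 251 codons lay on the strand of the gene. Codons were matched by position and strand, so the gene that each belongs to was not checked. Of the sites printed above, those of Ndufc1, Ndufb8 and Atp5h are start codons, and that of Ndufaf8 is not annotated as one. Whether such a match is a YY1 site or only the letters around a start codon cannot be told apart from the sequence. This comparison was added after the matches had been seen.

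**Figure D5:**
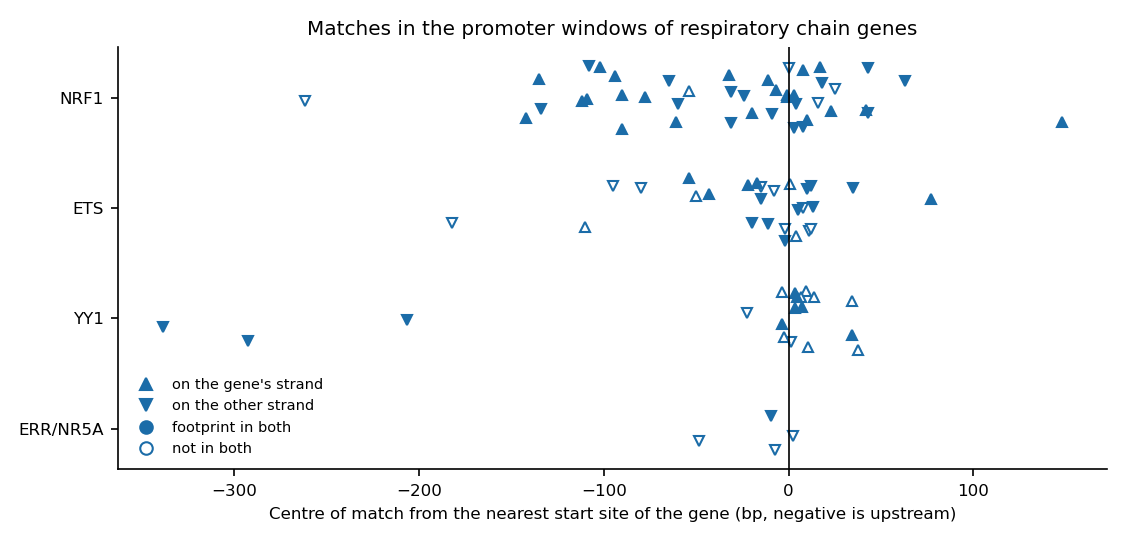
Distance of each NRF1, ETS, YY1 and receptor match of respiratory chain genes from the nearest start site of the gene (horizontal axis, bp, negative upstream), one row per motif with points moved up or down at random so that they do not hide each other. Upward triangles match on the gene's strand and downward ones on the other, filled where a footprint lies over the match in both libraries. YY1 matches cluster at the start with 3 outlying ones upstream, and NRF1 matches, mostly filled, spread more widely.

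Few distal sites lay next to respiratory chain genes. Shared peaks over 1000 bp from every start site were attributed to whichever protein-coding gene started nearest, and 44 of 98 entries (44.9%) received at least 1, against 58.2% of the other genes. The 125 peaks averaged 1.28 per entry, against 2.41 per other gene, and 15 lay within the gene they were attributed to. This count depends on the distance to neighbouring genes, which was not adjusted for, and a nearest start does not show which gene a site acts on. Their median mean value was 0.894, against 0.793 for all other distal peaks.

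The most distal peaks were next to Atp5g3, with 9, then Ndufa10, Cox7a2l and Cox4i2, with 7 each, and Ndufb4 and Ndufaf6, with 6 each. These are peaks of replicate 1, so a peak of replicate 2 can be counted more than once. Next to Cox4i2, the peaks starting at chr2:152785461, 152785681 and 152786001 had the same replicate 2 value, 1.52, and lay inside Bcl2l1. Peaks with an equal replicate 2 value, 0.870, also occurred next to Cox7a2l. The 2 strongest distal peaks stood next to isoform genes whose own promoter was closed in at least 1 library. A site 1.95 kb upstream of Ndufa4l2 (chr10:127512921-127513120) had 9.76 in replicate 1 and 5.54 in replicate 2. A site 11.6 kb from the start of Cox4i2, beyond the end of the gene (chr2:152766581-152766760), had 8.72 and 5.35. Both were close to the median values of the member promoters, 9.86 and 5.23. The next were 2 sites 28.3 and 30.4 kb from Ndufb4, at 5.48 and 3.49 and at 4.98 and 2.64, and a site 6.22 kb from Uqcr10 at 4.92 and 3.26.

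Genes of the respiratory chain that the naming rule leaves out were open as well. Of 40 such genes, 40 were open, with a median mean value of 7.76. They were listed as cytochrome c, further subunits, assembly factors or other factors of the chain. Over all nuclear protein-coding genes outside the naming rule, 66.6% were open, with a median of 5.13. The highest of the 40 were Cycs, the gene of cytochrome c, at 13.9 ± 6.97, and Tmem126b, a complex I assembly factor, at 13.7 ± 6.87 (SD, n = 2 each). The lowest was 3.08, and 5 of the 90 open members of the naming rule lay under that value. The list holds no tissue isoforms.

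All 20 listed regulators of respiratory chain genes were also open, with a median of 8.23. Among them, Gabpa shares its peak of 6.71 and 3.56 with the member Atp5j, so its call is not separate from the members. The background is the same, 66.6% of genes open with a median of 5.13. Nfya, a subunit of NFY, was highest with 25.2 in replicate 1 and 11.6 in replicate 2, followed by Esrra, the gene of estrogen-related receptor alpha, with 24.6 and 11.5. The 3 lowest, named after their values were seen, were Ppargc1a, the coactivator PGC-1 alpha, with 0.488 and 0.445, Esrrb with 0.795 and 0.615, and Esrrg with 2.80 and 1.30. Accessible promoters of the receptor family were thus of high value at Esrra and of low value at its paralogs Esrrb and Esrrg in both libraries.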

How the data were processed

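Peaks, footprints and per-base q-values were called on mm10 for each library from its own filtered alignments and not pooled, per the descriptions deposited with the files. The sources used here do not name the aligner, the callers or their thresholds. Of the 2 peak lists that the authors deposited for each library, the longer one was used, with its signal values as they are. The deposited q-value lists end at 0.0499. The deposited footprint score is constant, so only positions were used.

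Start sites were those of all transcripts in GENCODE M21, and sequences were read from the GRCm38 reference. RefSeq (GRCm38) starts, matched by symbol, were available for 79 of 98 entries. Overlaps needed 1 base. Values were computed in Python 3.11.15 with numpy 2.4.6, and the scripts were tested on simulated data. No test was run: there was 1 group of 2 animals, and lists are described by counts and medians beside all other protein-coding genes.

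Members and lists were chosen with earlier results of these data known. Genes were named by rule: all members lacking a promoter peak in a library, the 4 highest and 2 lowest of each complex, the isoform families, the 3 highest and 3 lowest library ratios, the 5 members with most distal peaks and the 5 strongest distal peaks, up to 4 footprinted sites per motif, and the 2 highest of each further list. Ties were kept. One item is not reported here.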

Additional observations from a re-analysis of the deposited data

How the results depend on the processing

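Of 72 alternative values of the main results, 63 stayed within 1.5 times the count or 1 SD of the reported value. For promoter values the SD was that of the 2 library medians, 3.28 for respiratory chain genes and 2.16 for the others. Leaving out 1 library moves a median by less than this SD nearly by construction, so that setting could hardly fail. An open count of 90 of 98 had no room to rise by 1.5 times. For the library ratio the SD was that across genes. The count of open respiratory chain genes was 88 with the most upstream start alone, which lost Atp5f1 and Cox7a2l, 77 of 79 with RefSeq starts (75 of the same 79 with GENCODE starts), with the Atp5o promoter counted under both its identifiers, and 90 or 91 in the other settings. Leaving out 1 library gave 90 to 91 open genes, a median value of 5.23 to 9.83 for respiratory chain genes and 3.51 to 6.38 for the others, and 176 to 180 distal peaks. The shorter peak list gave 74 distal peaks in place of 125, and 19 of the 20 listed regulators were open with it. With the most upstream start alone, 18 of the 20 regulators and 38 of the 40 genes outside the naming rule were open. Stricter consensus letters lowered the windows with a match to 10 for NRF1, 7 for ETS, 11 for YY1 and 2 for the receptor consensus. The shares were then 11.1% against 3.6% of other windows for NRF1 and 7.78% against 7.38% for ETS. For YY1 they were 12.2% against 2.2%, and for the receptor consensus 2.22% against 0.173%. Asking that a footprint cover the whole match left 31 of 38 NRF1, 5 of 14 ETS, 2 of 9 YY1 and 0 of 1 receptor matches. Receptor matches under a footprint numbered 1 to 3 when 1 library was left out, and with replicate 1 alone their share turned to 75%, against 46.8% at other promoters. Fewer letters, peaks or bases meet the stricter settings by their construction. No paired analysis was possible because there was 1 group of 2 animals. Read depth is not stated, so how far it limits the weak peaks was not tested.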
